A study of Mus musculus with 6 samples.

Results

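Cadherins and their non-clustered relatives are calcium-dependent adhesion proteins of the cell surface. In the mouse count tables used here they comprised 41 genes of 32531 gene features, taken by symbol: all numbered Cdh genes other than the endothelial Cdh5, 12 protocadherins that lie outside the clustered arrays, Fat1 to Fat4 and Celsr1 to Celsr3. The choice used gene symbols and no measured value. RNA came from the hypothalamus of adult, untreated control mice of the line Lhx5-TRAP DT154. In this line Lhx5, a LIM-homeodomain transcription factor gene, drives an EGFP-tagged ribosomal protein, Rpl10a, so that polysomes of the driver-positive cells can be pulled down from the tissue (translating ribosome affinity purification, TRAP). The 3 IP libraries hold RNA from the anti-EGFP pulldown of this line, and the 3 unbound libraries hold RNA of the same line and tissue that the labels' sample type calls unbound and their titles call input. All 6 libraries carry the transgene, and the labels name neither a line without it nor the number of animals behind a library. The p-values below therefore measure only the spread between these libraries, which may be technical.

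Classical cadherins bind mostly their own kind on the neighbouring cell and hold the actin cytoskeleton through catenins. Type I members such as Cdh2 (N-cadherin) adhere strongly, and the type II members are expressed in patterns that differ between neuronal groups. The non-clustered protocadherins are divided into a delta-1 group (Pcdh1, Pcdh7, Pcdh9, Pcdh11x) and a delta-2 group (Pcdh8, Pcdh10, Pcdh17, Pcdh18, Pcdh19), which differ in the number of extracellular repeats and in the cytoplasmic tail. Fat proteins are very large atypical cadherins, of which Fat4 binds Dachsous, and Celsr proteins are the mammalian relatives of fly Flamingo in planar cell polarity.

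The libraries held 32471045 to 46293837 gene counts in IP and 32926146 to 40768577 in unbound RNA. Levels are given as CPM, a gene's counts relative to its library's total, after scaling by the trimmed mean of M-values (TMM). Lhx5 stood at 56.7, 58.1 and 70.5 CPM in IP replicates 1 to 3, against 2.03, 1.86 and 6.29 CPM in the unbound replicates, which is the check of the pulldown. Summed neuron markers were at 15120 to 16390 CPM in IP and 10170 to 11530 CPM in unbound RNA. Unbound replicate 3 stood apart in regional markers. Its choroid plexus markers summed to 40.9 CPM against 2055 and 2244 CPM in the other unbound libraries, its striatal markers to 67.5 against 1214 and 1005 CPM, its markers of deep hypothalamic nuclei to 6.96 against 172 and 99.7 CPM, and its midbrain and hindbrain markers to 212 against 33.5 and 24.2 CPM. In bulk RNA, fewer cells of a type and less RNA per cell cannot be told apart.

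Of the 41 members, 36 passed the filter on low counts and were tested, and 33 of these reached the filter's 0.252 CPM in all 6 libraries. Cdh1 and Cdh19 reached it in all 3 unbound libraries but not in all IP libraries, so they passed through the group where they are higher, and Cdh3 passed with libraries of both groups. A gene is called where its p from edgeR's quasi-likelihood test, adjusted by Benjamini and Hochberg's method over all 16991 genes tested, lies under 0.05. By that rule 7 members were higher in IP (Cdh24, Pcdh19, Cdh18, Pcdh18, Cdh15, Pcdh17 and Cdh22) and 7 were lower (Cdh19, Cdh23, Fat3, Fat4, Fat1, Cdh20 and Pcdh15). Over all genes 44.3% were called, 21.1% higher and 23.2% lower, and the members' 38.9% of those tested is close to that background. The libraries of the groups did not overlap for 16 members, 8 in each direction, or 44.4%, against 55.9% of all genes tested. These shares give no result about the members as a set, and what follows describes which of them differed. Their median log2 fold change was 0.27 (IP over unbound) and that of all genes -0.01.

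The counts depended on the libraries used. With the replicate number as a block 11 members were higher and 8 lower. Without IP replicate 3 the counts were 12 and 6, without both replicates numbered 3 16 and 7, and without unbound replicate 3 alone 8 and 8. Restricted to lane 2, with 2 libraries per group, the test called 4 higher (Pcdh19, 1.39; Cdh18, 1.23; Pcdh18, 1.04; Pcdh17, 0.91) and 3 lower (Cdh19, -3.64; Cdh23, -2.55; Fat3, -1.83), as log2 fold changes. In that lane 2 fit 1297 of 17320 genes were higher and 2538 lower. Lane 4 held 1 library per group and gave no test. Scaling on neuron markers moved the median of all genes to -0.61 and that of the members to -0.34, with 3 members higher (Pcdh18, Pcdh19, Cdh18) and 14 lower. Under that scaling 675 of 16991 genes were higher and 7905 lower.

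**Figure D1:**
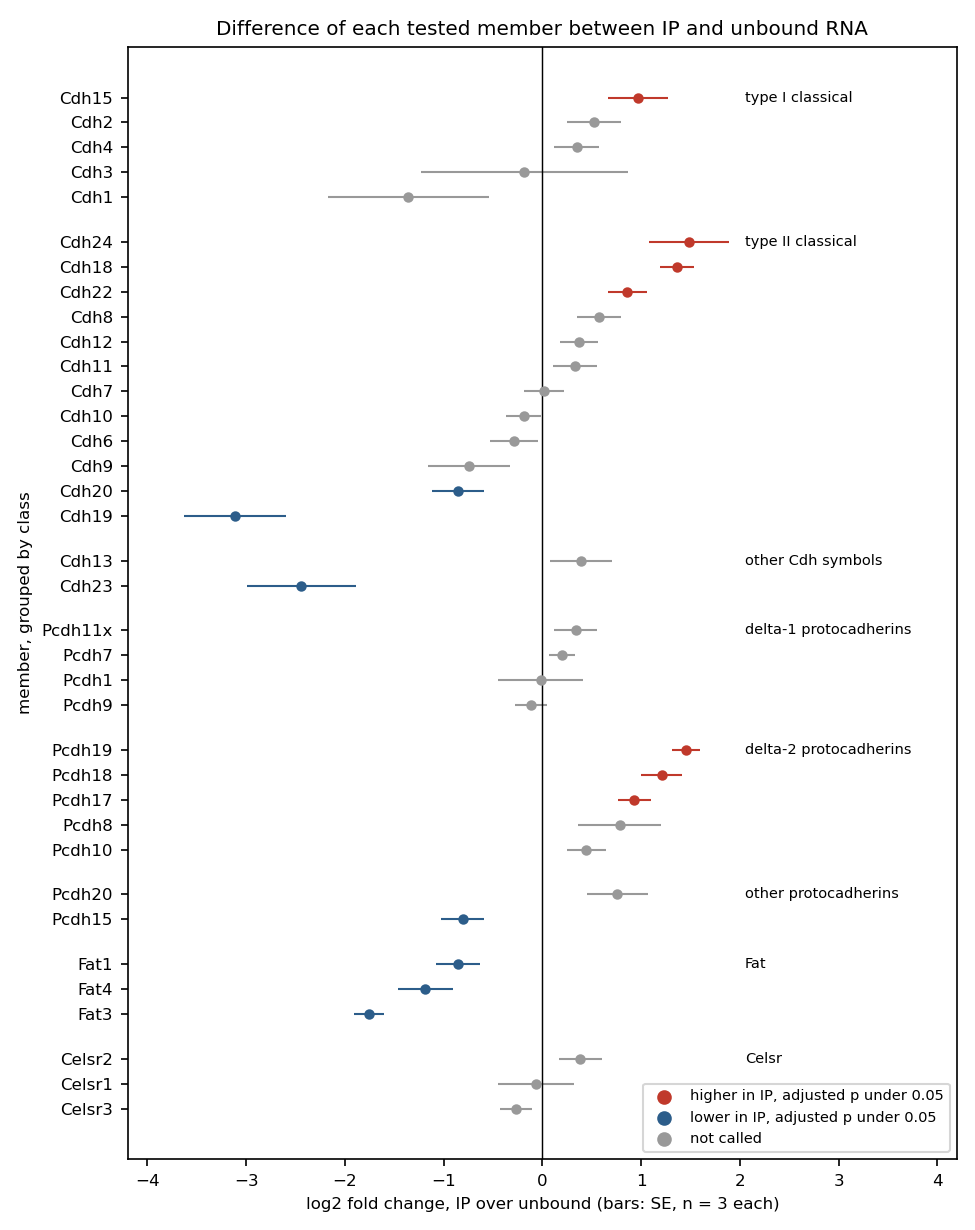
Log2 fold change of each tested member, IP over unbound, with its SE (n = 3 libraries each), grouped by class. Red points are called higher and blue points called lower in IP. The 3 tested Fat genes lie left of 0, at -0.86, -1.18 and -1.76, and kept that sign under each other scaling. The 5 delta-2 protocadherins lie right of 0, of which Pcdh10 was at -0.16 when libraries were scaled on neuron markers.

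Of the 5 delta-2 protocadherins, Pcdh19, Pcdh18 and Pcdh17 rose and Pcdh10 and Pcdh8 did not pass. Over all genes tested 21.1% were called higher. In mm10 Pcdh19 spans chrX:133582860-133688987 (minus strand), Pcdh18 chr3:49743296-49757325 (minus strand) and Pcdh17 chr14:84443563-84539002 (plus strand). Fat3, the lower member with the smallest adjusted p, spans chr9:15910189-16501285 (minus strand). The 250 bases before the RefSeq start of these 4 genes (GRCm38.p6, each read 5′ to 3′ on the gene's own strand) are shown because the first 3 moved together and Fat3 moved the other way. Capitals mark TAAT or its reverse complement ATTA, the core that homeodomain proteins favour.

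Pcdh19 (chrX:133688994-133689243, minus strand): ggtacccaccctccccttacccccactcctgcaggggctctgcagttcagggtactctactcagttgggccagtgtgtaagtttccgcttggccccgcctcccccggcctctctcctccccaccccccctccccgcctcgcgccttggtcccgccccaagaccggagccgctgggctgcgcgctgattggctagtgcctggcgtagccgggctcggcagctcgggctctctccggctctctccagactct
Pcdh18 (chr3:49757317-49757566, minus strand): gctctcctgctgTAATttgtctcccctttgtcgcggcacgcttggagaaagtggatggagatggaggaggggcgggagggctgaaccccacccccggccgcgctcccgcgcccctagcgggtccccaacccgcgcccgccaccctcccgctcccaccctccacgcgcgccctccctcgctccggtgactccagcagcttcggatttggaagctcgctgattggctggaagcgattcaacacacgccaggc
Pcdh17 (chr14:84443313-84443562, plus strand): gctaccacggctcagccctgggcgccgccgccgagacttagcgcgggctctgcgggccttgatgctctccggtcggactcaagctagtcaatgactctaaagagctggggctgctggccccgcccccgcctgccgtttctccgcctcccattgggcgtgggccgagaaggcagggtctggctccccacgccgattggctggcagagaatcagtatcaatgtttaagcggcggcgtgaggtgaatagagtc
Fat3 (chr9:16502055-16502304, minus strand): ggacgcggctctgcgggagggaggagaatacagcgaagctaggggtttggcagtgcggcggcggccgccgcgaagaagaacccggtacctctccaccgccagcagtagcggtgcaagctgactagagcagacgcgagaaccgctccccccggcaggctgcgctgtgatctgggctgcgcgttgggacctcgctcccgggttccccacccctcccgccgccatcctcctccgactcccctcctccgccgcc

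Of these windows 1, that of Pcdh18, held the core, once. The longer palindrome TAATTA, searched on both strands, was in 1 of the 31 promoter windows that RefSeq gave for 28 members, a start of Cdh7, which is 3.23%, against 4.84% of 32851 windows of all genes. The 4-letter core, which every TAATTA also holds, was in 51.6% of the members' windows and 54.9% of all. GC content was 69.2% for Pcdh19, 68.0% for Pcdh18, 64.8% for Pcdh17 and 70.4% for Fat3. Its median was 58% over the members' windows and 52.4% over all windows, and the shares of TAATTA and TAAT were not matched for it. These matches describe letters in a window and no binding was measured.

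Pcdh19 is an X-linked protocadherin that associates with N-cadherin and is mutated in a human epilepsy. It stood at 153, 168 and 136 CPM in IP replicates 1 to 3, against 60.7, 56.0 and 49.9 CPM in the unbound replicates. Every IP library was far above every unbound one. The difference was 2.75-fold, or 1.46 ± 0.14 on the log2 scale (SE; adjusted p = 1.94e-04, edgeR), and the call held in each of the 19 alternative fits (0.85 to 1.56). A short exon stretch of a noncoding gene on the opposite strand, Gm26851, overlaps Pcdh19 over 57 bases.

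Pcdh17, which in mouse lies along axons and at synapses, had 211, 196 and 171 CPM in IP libraries, against 121, 99.7 and 83.1 CPM in unbound libraries. The groups were well separated, with replicate 3 lowest in both. Its log2 fold change of 0.93 ± 0.17 (SE; adjusted p = 0.00262, edgeR) missed the threshold under scaling on neuron markers alone (0.32, adjusted p = 0.188, edgeR). Pcdh18, a partner of the adaptor Dab1 in mouse, stood at 24.3, 27.3 and 18.7 CPM in IP against 8.82, 9.33 and 12.2 CPM in unbound RNA. Here too no libraries overlapped, and the difference of 1.21 ± 0.21 on the log2 scale (SE; adjusted p = 0.00206, edgeR) was called in every one of the 19 alternative fits (0.62 to 1.49).

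Pcdh10, a binding partner of Nap1 in the control of axon growth, had 250, 258 and 176 CPM in IP libraries, against 194, 176 and 132 CPM in unbound libraries. IP replicate 3 fell within the unbound range, and the log2 fold change of 0.45 ± 0.20 (SE) did not pass (adjusted p = 0.0986, edgeR). It passed with the replicate block (0.45, adjusted p = 0.0140), without both replicates numbered 3 (0.44) and without IP replicate 3 (0.62, adjusted p = 0.0419, edgeR). Pcdh8 (arcadlin), an activity-induced protocadherin, stood at 25.8, 25.1 and 9.96 CPM in IP against 16.5, 11.9 and 6.93 CPM in unbound RNA. Within each replicate number the IP value was the higher one, while the groups overlapped through replicate 3. It missed the threshold at 0.78 on the log2 scale (adjusted p = 0.166) and passed with the replicate block (0.75, adjusted p = 0.0137, both edgeR). Exons of the antisense gene Gm9748 overlap it, and without the strand setting their reads cannot be told apart.

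Summed over the 5 genes, the delta-2 level was 664, 675 and 512 CPM in IP libraries, against 401, 353 and 284 CPM in unbound libraries. Ratios of counts within a library do not depend on scaling. The ratio of Pcdh19 to Pcdh10 was 0.612, 0.650 and 0.776 in IP and 0.313, 0.318 and 0.379 in unbound libraries, so the balance inside the group differed as well as its sum. The ratio of Pcdh17 to Pcdh10 was 0.844, 0.759 and 0.975 in IP and 0.622, 0.565 and 0.631 in unbound libraries. These ratios, and those of other pairs of members given below, were chosen after the values were seen, and they restate the members' own differences. Neuron markers and those of deep hypothalamic nuclei were also higher in IP. Of the neuron markers 5 of 8 were called higher, with a median log2 fold change of 0.65, and of the deep hypothalamic ones 4 of 8, with a median of 1.52. The deep hypothalamic markers summed to 238, 215 and 191 CPM in IP libraries, against 172, 99.7 and 6.96 CPM in unbound libraries. The part of these cells in the higher calls of members was not tested.

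**Figure D2:**
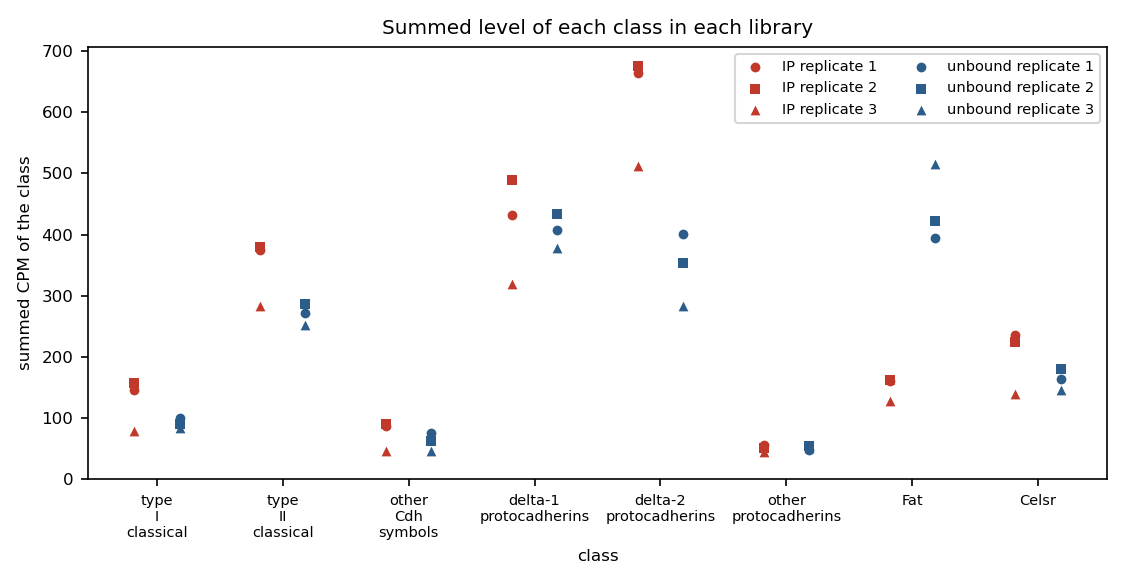
Summed CPM of each class (vertical axis) in each IP library (red, left) and unbound library (blue, right), with replicates as symbols. The delta-2 protocadherins at 512 to 675 CPM in IP lie above their unbound values of 284 to 401, and the Fat genes at 127 to 162 CPM in IP lie below their unbound values of 394 to 515.

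None of the 4 delta-1 protocadherins was called, against 44.3% of all genes tested. Pcdh9 had 183, 214 and 148 CPM in IP libraries, against 183, 191 and 216 CPM in unbound libraries. The ranges overlapped almost wholly, at a log2 fold change of -0.11 ± 0.16 (SE; adjusted p = 0.596, edgeR). Under scaling on neuron markers Pcdh9 was called lower (-0.71, adjusted p = 0.00588, edgeR). Pcdh1 showed the replicate numbers rather than the fractions, at 88.1, 120 and 48.4 CPM in IP against 96.0, 118 and 44.6 CPM in unbound RNA. Replicate 3 was by far the lowest of each group. Pcdh7 (85.1 to 101 CPM in IP, 77.9 to 90.1 in unbound) and Pcdh11x (36.7 to 60.7 CPM in IP, 33.5 to 49.5 in unbound) overlapped between groups. Pcdh11x passed without IP replicate 3 (0.56, adjusted p = 0.0423, edgeR), and exons of 4932441J04Rik overlap Pcdh7 on the other strand over 2235 bases. Set against Pcdh9 in the same library, Pcdh19 was at 0.836, 0.785 and 0.921 of its count in IP and at 0.332, 0.293 and 0.232 in unbound libraries.

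The remaining protocadherins went apart. Pcdh15, which with Cdh23 forms the tip links of inner-ear hair cells, fell. It stood at 21.2, 19.2 and 14.4 CPM in IP, against 26.0, 28.9 and 40.9 CPM in unbound RNA. The groups did not overlap, with replicate 3 at the extreme of both. The difference of -0.81 ± 0.22 on the log2 scale (SE; adjusted p = 0.0164, edgeR) was called, but the lane 2 libraries alone gave -0.91 with an adjusted p of 0.0832 (edgeR). Pcdh20 had 35.7, 32.4 and 29.6 CPM in IP, against 21.5, 26.2 and 10.1 CPM in unbound RNA, again without overlap. At 0.76 ± 0.31 (SE) it did not pass (adjusted p = 0.0755), and it did with the replicate block (0.86, adjusted p = 0.0294, both edgeR), in limma-voom (0.88, adjusted p = 0.0469), and when unbound replicate 2 or 3 was left out. Pcdh12, known from endothelium, had 0 to 2 reads per library.

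All 3 Fat genes that were tested fell, in each scaling tried. Over all genes tested 23.2% were called lower. Fat3, which in mouse retina shapes amacrine cell dendrites, stood at 113, 113 and 92.5 CPM in IP, against 325, 348 and 409 CPM in unbound RNA. No IP library came near an unbound one. Fat3 was 3.39-fold lower in IP, or -1.76 ± 0.15 on the log2 scale (SE; adjusted p = 1.31e-04, edgeR), and was called in each of the 19 alternative fits (-2.35 to -1.59).

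Fat1, a regulator of actin and cell polarity, stood at 40.8, 37.8 and 24.2 CPM in IP, against 54.5, 55.1 and 76.3 CPM in unbound RNA. Replicate 3 was the lowest of the IP and the highest of the unbound libraries. Fat1 was lower by the test, at -0.86 ± 0.22 on the log2 scale (SE; adjusted p = 0.0135, edgeR), and at -0.50 without both replicates numbered 3. Fat4, the receptor that pairs with Dachsous, had 6.68, 10.5 and 10.6 CPM in IP and 14.9, 19.3 and 28.8 CPM in unbound libraries, which is -1.18 ± 0.28 on the log2 scale (SE; adjusted p = 0.00906, edgeR). In the lane 2 libraries alone neither passed (Fat1 -1.01, adjusted p = 0.0632; Fat4 -1.33, adjusted p = 0.0571, edgeR). Antisense genes overlap exons of both, C230034O21Rik over 1209 bases of Fat4 and Gm2366 over 487 bases of Fat1. Fat2, a gene of cerebellar granule cells, had 0, 0 and 1 reads in IP libraries and 0, 4 and 40 in unbound libraries, the 40 in unbound replicate 3, and was under the filter.

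Most marker genes of glia and other non-neuronal cells were also lower in IP. Summed astrocyte markers were at 130 to 328 CPM in IP and 1193 to 1691 in unbound libraries, with 8 of 8 called lower. Summed oligodendrocyte markers were at 323 to 533 CPM in IP and 3415 to 6583 in unbound libraries, 8 of 8 lower, and those of their precursors at 21.2 to 44.0 and 205 to 346, with 5 of 6 lower. Summed ependymal and tanycyte markers were at 12.9 to 21.99 CPM in IP and 81.1 to 132 in unbound libraries, with 6 of 7 tested lower, and mural and fibroblast markers at 4.60 to 8.004 and 26.3 to 70.8, with 7 of 8 lower. No marker of these lists was at 0 in all libraries of a group. Summed microglial markers were at 5.18 to 16.1 CPM in IP and 65.8 to 101 in unbound libraries, 8 of 8 lower, and endothelial markers at 1.62 to 4.44 and 8.31 to 19.6, with 4 of 6 tested lower. Choroid plexus markers went otherwise, with only 1 of 5 tested lower. They summed to 133, 240 and 57.7 CPM in IP, against 2055, 2244 and 40.9 CPM in unbound RNA, so IP was the higher in replicate 3. The part of non-neuronal cells in the lower calls of Fat1, Fat3, Fat4, Cdh19, Cdh20, Cdh23 and Pcdh15 was not tested.

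**Figure D3:**
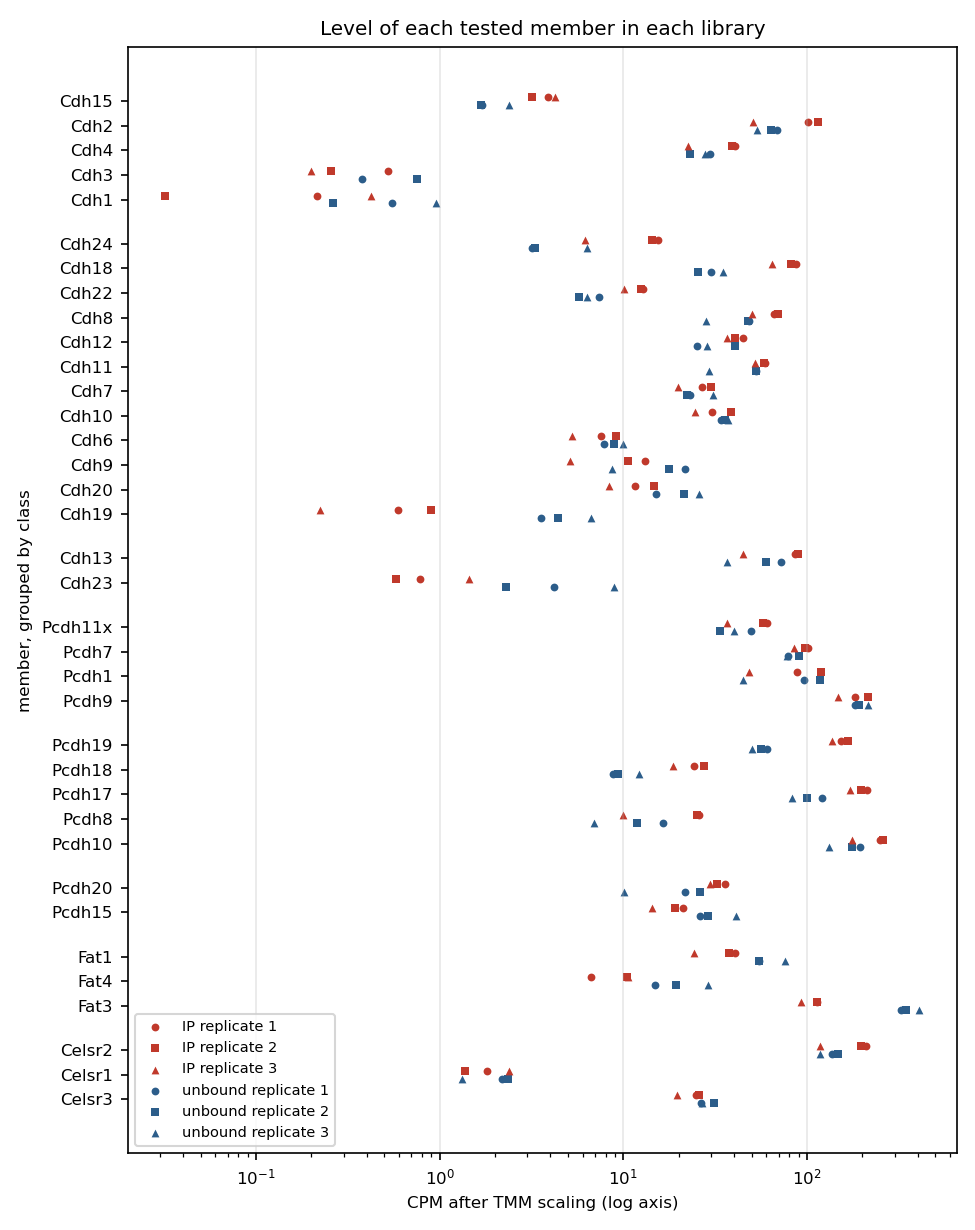
CPM of each tested member in each library on a log axis, IP in red above unbound in blue, with replicates as symbols. The red points of Pcdh19 (136 to 168 CPM) stand apart from its blue points (49.9 to 60.7 CPM), and those of Fat3 lie at 92.5 to 113 against 325 to 409 CPM. Cdh3 had 0 reads in unbound replicate 3, which a log axis cannot show.

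Among the 12 type II classical cadherins 3 rose, 2 fell and 7 did not pass. Over all genes tested 44.3% were called. Cdh18, a type II cadherin of the brain at chr15:22549022-23474418 (plus strand), stood at 86.6, 81.7 and 64.3 CPM in IP, against 30.0, 25.6 and 34.8 CPM in unbound RNA. Each IP library was above each unbound one. Cdh18 was 2.58-fold higher in IP, or 1.36 ± 0.17 on the log2 scale (SE; adjusted p = 5.61e-04, edgeR), and was called in each of the 19 alternative fits (0.77 to 1.58). Cdh10, another type II cadherin, had 30.4, 38.7 and 24.6 CPM in IP and 34.0, 35.7 and 37.1 CPM in unbound libraries and did not pass (-0.19, adjusted p = 0.406, edgeR). The ratio of Cdh18 to Cdh10 was 2.85, 2.11 and 2.62 in IP, against 0.881, 0.715 and 0.939 in unbound libraries.

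Cdh22 was first described in pituitary and brain. It had 12.8, 12.4 and 10.1 CPM in IP, against 7.34, 5.76 and 6.33 CPM in unbound RNA. The groups were apart at 0.86 ± 0.20 on the log2 scale (SE; adjusted p = 0.00740, edgeR). It did not pass in the lane 2 libraries alone (0.75, adjusted p = 0.103) or under scaling on neuron markers (0.26, adjusted p = 0.312, edgeR). Cdh24 had 15.5, 14.2 and 6.18 CPM in IP, against 3.18, 3.28 and 6.31 CPM in unbound RNA. The libraries numbered 3 were level while the others were far apart, and so the groups overlapped. Its log2 fold change of 1.49 ± 0.40 (SE; adjusted p = 0.0169) was the highest among members and among the least stable, since it did not pass with the replicate block (1.47, adjusted p = 0.0624; 1.22 with GC correction as well), without IP replicate 1 (1.27), IP replicate 2 (1.36) or unbound replicate 2 (1.34), in the lane 2 libraries (1.19) or under scaling on neuron markers (0.91; adjusted p 0.0524 to 0.153, edgeR). Without both replicates numbered 3 it was 2.18.

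Cdh19 had the largest difference of all members, at a low level. It stood at 0.59, 0.90 and 0.22 CPM in IP, against 3.56, 4.39 and 6.69 CPM in unbound RNA. This cadherin, known from Schwann cell precursors, was 8.65-fold lower in IP (log2 -3.11 ± 0.51, SE; adjusted p = 0.00176, edgeR) and was called in each of the 19 alternative fits. Cdh19 reached the filter's 0.252 CPM in 3 unbound and only 2 IP libraries. It was thus tested through the group where it is higher, which limits this call. Cdh20 had 11.6, 14.6 and 8.34 CPM in IP, against 15.1, 21.5 and 25.7 CPM in unbound RNA. The highest IP and the lowest unbound library nearly met, and the log2 fold change of -0.85 ± 0.26 (SE; adjusted p = 0.0272, edgeR) did not pass without IP replicate 1 (-0.84), IP replicate 3 (-0.63), unbound replicate 2 (-0.82) or both replicates numbered 3 (-0.50; adjusted p 0.0691 to 0.0829, edgeR), nor in the lane 2 libraries (-1.03, adjusted p = 0.0750, edgeR).

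Of the type II members that did not pass, Cdh8 came nearest. Cdh8 had 65.8, 69.1 and 50.2 CPM in IP, against 48.2, 47.6 and 28.2 CPM in unbound RNA, with no overlap (0.58, adjusted p = 0.0637, edgeR). It passed with the replicate block (0.60, adjusted p = 0.00913, edgeR) and without both replicates numbered 3 (0.48). Cdh9 had 13.2, 10.5 and 5.11 CPM in IP, against 21.7, 17.8 and 8.71 CPM in unbound RNA. In each pair of equal number the IP value was the lower one, and Cdh9 passed as lower with the replicate block (-0.75, adjusted p = 0.00918) and without unbound replicate 3 (-1.05, adjusted p = 0.0228, edgeR), against -0.74 with all libraries (adjusted p = 0.181). Cdh6, Cdh7, Cdh11 and Cdh12 overlapped between groups. Cdh11, a cadherin of mesenchyme and brain, had 51.9 to 59.3 CPM in IP and 29.3 to 52.9 CPM in unbound libraries, and Cdh12 passed without unbound replicate 2 alone (0.61, adjusted p = 0.0286, edgeR).

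Cdh15 (M-cadherin), known from muscle and cerebellum, was the one called of the 5 type I cadherins, against 44.3% of all genes tested. It had 3.897, 3.18 and 4.25 CPM in IP, against 1.70, 1.69 and 2.40 CPM in unbound RNA. The groups did not overlap, at a log2 fold change of 0.97 ± 0.30 (SE; adjusted p = 0.0285, edgeR). That call was lost in 8 of 19 alternative fits, those without IP replicate 1 (0.96), IP replicate 3 (0.91), unbound replicate 1 (0.93) or unbound replicate 2 (0.88), both GC corrections (0.76), lane 2 (0.99) and scaling on neuron markers (0.38; adjusted p 0.0611 to 0.302, edgeR). Cdh2 had 101, 115 and 51.0 CPM in IP, against 68.3, 64.0 and 53.5 CPM in unbound RNA. IP replicate 3 lay below all unbound libraries. With it the log2 fold change was 0.52 ± 0.28 (SE; adjusted p = 0.155), and without it 0.82 (adjusted p = 0.00764, edgeR).

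Cdh4 (R-cadherin) also had its lowest IP value in replicate 3, with 40.7, 39.0 and 22.4 CPM in IP against 29.4, 23.1 and 27.7 CPM in unbound RNA, and passed without IP replicate 3 (0.60, adjusted p = 0.0185; 0.35 and 0.247 with it, edgeR). The epithelial cadherins Cdh1 and Cdh3 were near the limit of detection, at 0.03 to 0.42 and 0.20 to 0.52 CPM in IP and at 0.26 to 0.96 and 0 to 0.76 CPM in unbound libraries. Neither passed (Cdh1 -1.36, adjusted p = 0.207; Cdh3 -0.18, adjusted p = 0.902, edgeR).

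Among the other Cdh symbols Cdh23 fell. It had 0.78, 0.58 and 1.44 CPM in IP, against 4.21, 2.30 and 8.90 CPM in unbound RNA. Its levels spread widely among unbound libraries but stayed above IP throughout, at a log2 fold change of -2.44 ± 0.56 (SE; adjusted p = 0.00762, edgeR), -1.78 without unbound replicate 3. Cdh13 (T-cadherin), which is held in the membrane by a lipid anchor, had 86.3, 89.5 and 44.8 CPM in IP against 72.0, 59.5 and 36.8 CPM in unbound RNA. Both replicates numbered 3 were low. Cdh13 passed with the replicate block (0.38, adjusted p = 0.0391) and without both replicates numbered 3 (0.40, adjusted p = 0.0248, both edgeR). With all libraries and no block it did not pass (0.39 ± 0.32, SE; adjusted p = 0.346, edgeR). Cdh16, Cdh17 and Cdh26, known from kidney, intestine and other epithelia, had 0 to 16 reads in any library, and none of the 5 untested members exceeded 0.96 CPM.

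The 3 Celsr genes gave no call, against 44.3% of all genes tested. Celsr2 had 210, 196 and 118 CPM in IP, against 136, 148 and 117 CPM in unbound RNA. It passed without IP replicate 3 (0.63, adjusted p = 0.0200) and without both replicates numbered 3 (0.50, adjusted p = 0.00548), and not with all libraries (0.39 ± 0.22, SE; adjusted p = 0.18, edgeR). Celsr3, needed in mouse for major axon tracts, had 24.7, 25.8 and 19.6 CPM in IP and 26.5, 31.1 and 26.8 CPM in unbound libraries. These did not overlap, yet the log2 fold change of -0.27 did not pass (adjusted p = 0.207, edgeR). It was called lower with the GC correction and block together and under scaling on neuron markers. Celsr1, a polarity gene of progenitors and ependyma, was at 1.38 to 2.38 CPM in IP and 1.32 to 2.35 CPM in unbound libraries.

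Levels of different genes were compared per kb of annotated exon (GENCODE M21, all transcripts merged), since the longest merged exon length among members, 23773 bases for Pcdh15, was far above the shortest, 3012 bases for Cdh26. Pcdh9 had the highest level per kb in both fractions, 26.8 ± 4.8 CPM per kb in IP and 29.0 ± 2.5 in unbound RNA (SD, n = 3). In IP it was followed by Cdh18 (17.03 ± 2.6), Celsr2 (15.2 ± 4.3), Pcdh17 (14.8 ± 1.5), Pcdh19 (14.6 ± 1.5) and Pcdh10 (14.4 ± 2.9). These 5 neighbours differed from each other by less than or about as much as their SD. In unbound RNA Fat3 came second, at 16.8 ± 2.0 CPM per kb, and ranked 15 in IP, at 4.95 ± 0.56. Cdh18 ranked 2 in IP and 9 in unbound RNA (6.61 ± 1.02), and Pcdh19 ranked 5 in IP and 11 in unbound RNA (5.31 ± 0.52). The exon length is that of GENCODE and the annotation behind the counts is unknown here, which limits these ranks.

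**Figure D4:**
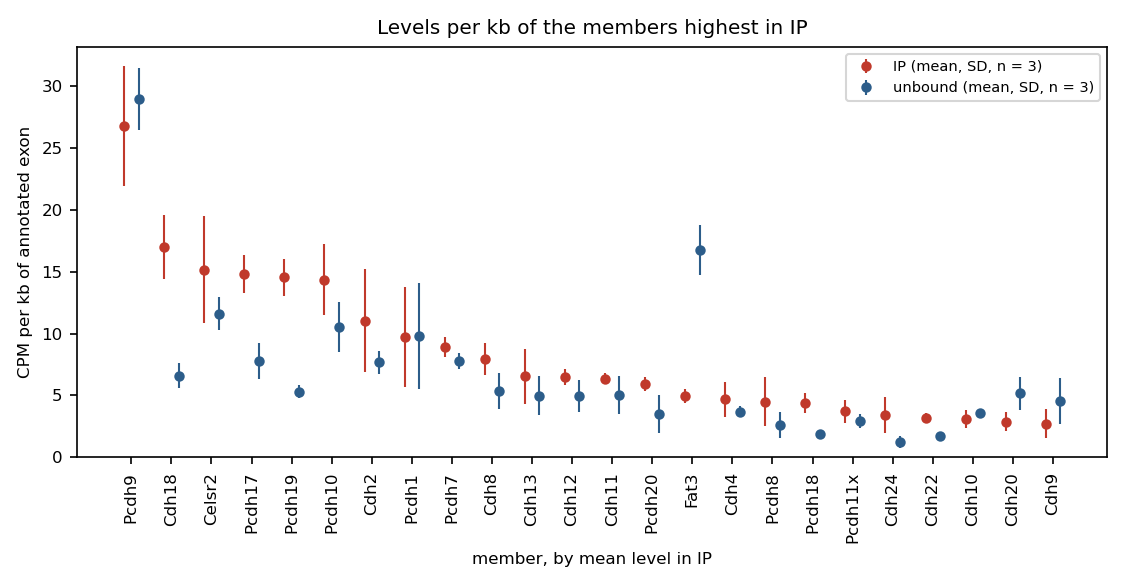
Mean level per kb of annotated exon with SD (n = 3 libraries) for the members highest in IP, IP in red left of unbound in blue. Pcdh9 leads in both fractions (26.8 and 29.0 CPM per kb), and Fat3 at 4.95 in IP and 16.8 in unbound RNA shows the widest gap on this linear scale.

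A list of 58 genes that work with cadherins (catenins, polarity partners, proteases, cytoplasmic partners of protocadherins, calsyntenins and other cadherin-domain genes, and repressors of cadherin genes) was read from the same fit, of which 57 had a row and 49 were tested. Of these 4 rose and 11 fell, or 30.6% called against 44.3% of all genes, with a median log2 fold change of -0.05 against -0.01. With the scaling as reported, the catenins Ctnnb1, Ctnna2 and Ctnnd2 differed little between the fractions, while Ctnnd1 was lower in IP. Ctnnb1 (beta-catenin), which links classical cadherins to alpha-catenin, had 321, 366 and 351 CPM in IP, against 315, 346 and 338 CPM in unbound RNA, and did not pass (0.06, adjusted p = 0.745, edgeR). Ctnna2, the neuronal alpha-catenin, had 58.4 to 60.8 CPM in IP and 46.2 to 55.0 CPM in unbound libraries, and Ctnnd2 (delta-catenin) had 339 to 374 CPM in IP and 292 to 314 CPM in unbound libraries. Neither passed (adjusted p = 0.198 and 0.155, edgeR), although no libraries overlapped.

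Of the 13 catenins and related proteins 5 fell and 0 rose, or 38.5% called against 44.3% of all genes. This share gives no result about the set. Ctnnd1 (p120-catenin), which holds classical cadherins at the membrane, stood at 27.5, 38.5 and 39.4 CPM in IP, against 67.7, 74.0 and 82.1 CPM in unbound RNA (log2 -1.09 ± 0.17, SE; adjusted p = 0.00140, edgeR). Ctnnal1 (-1.99), Vcl (vinculin, -1.56), Jup and Pkp2 fell too. Of 10 polarity partners 3 fell (30% called, also under the share of all genes), Fzd6, Vangl1 and Prickle1. Zeb2, a repressor of Cdh1, had 43.8, 54.9 and 31.5 CPM in IP, against 236, 275 and 198 CPM in unbound RNA (log2 -2.45 ± 0.23, SE; adjusted p = 1.52e-04, edgeR). Zeb1 and Cyfip1 were the other partners that fell. The marker values of non-neuronal cells given above apply to these falls as well, and their part was not tested.

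The 4 partners that rose were Wasf3, Mmp9, Clstn3 and Cdhr2. Wasf3, a subunit of the WAVE complex that several delta-2 protocadherins recruit, had 167, 164 and 191 CPM in IP, against 90.8, 91.5 and 115 CPM in unbound RNA (log2 0.81 ± 0.15, SE; adjusted p = 0.00266, edgeR). Wasf3 missed the threshold under scaling on neuron markers alone (0.21, adjusted p = 0.183, edgeR). It was the only one of the 7 cytoplasmic partners of protocadherins that rose, and Cyfip1 (-1.28) fell. The other 5 did not pass, among them Nckap1 (0.015), Wasf1 (-0.055) and Cyfip2 (0.24). These calls are 28.6% of the 7, against 44.3% of all genes tested. Clstn3 (calsyntenin-3), a synaptic cadherin-domain protein, had 122, 114 and 59.6 CPM in IP, against 59.9, 51.7 and 52.5 CPM in unbound RNA. Its call (0.85, adjusted p = 0.0230) was lost without IP replicate 1 (0.68), IP replicate 2 (0.74) or unbound replicate 2 (0.82; adjusted p 0.0725 to 0.0858, edgeR), in lane 2 (0.70) and under scaling on neuron markers (0.25). Mmp9 (1.93 to 2.80 CPM in IP, 0.38 to 1.20 in unbound) and Cdhr2 (1.497 to 2.33 CPM in IP, 0.23 to 1.08 in unbound) were at low levels, and each lost its call without IP replicate 1, IP replicate 2, unbound replicate 1 or unbound replicate 2 (adjusted p 0.0531 to 0.133, edgeR). Cdhr2 also lost it without IP replicate 3, with library size alone and with the GC correction, and both lost it in lane 2 and under scaling on neuron markers.

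**Figure D5:**
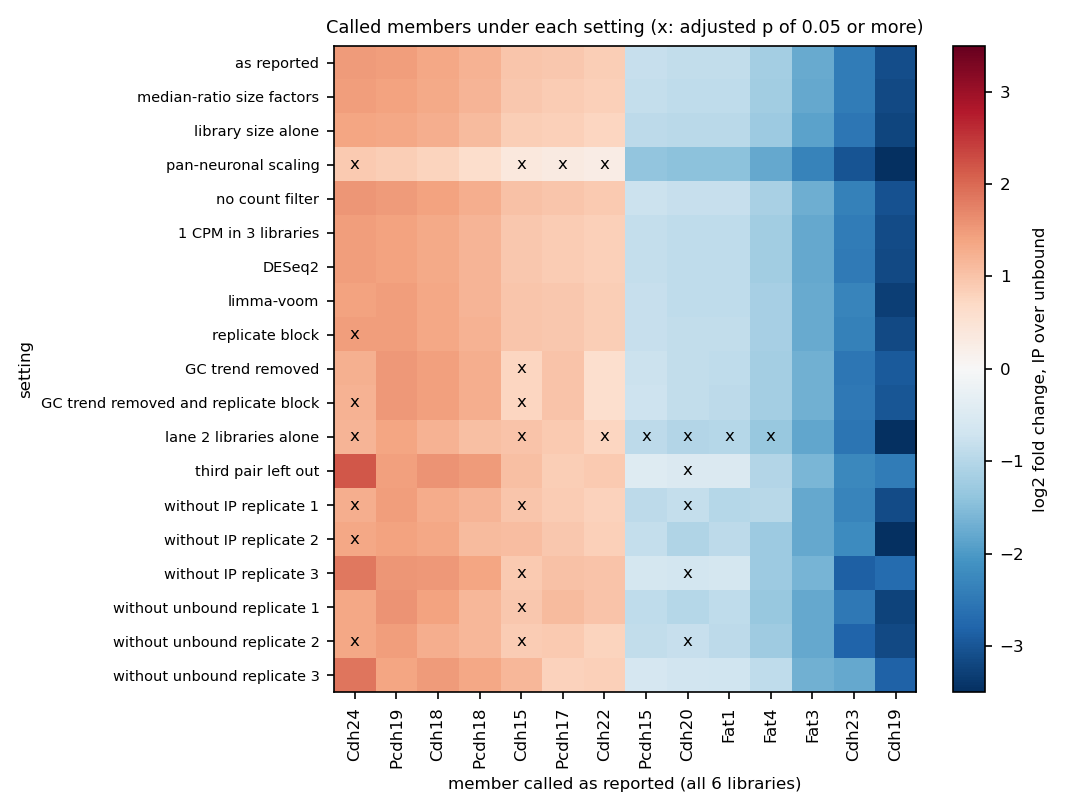
Log2 fold change (colour, IP over unbound) of the 14 called members under the settings named at left (the fit on genes with GC content and no correction is not drawn), with an x where the adjusted p was 0.05 or more. Pcdh19, Cdh18, Pcdh18, Fat3, Cdh23 and Cdh19 have no x, Cdh15 has the most (8 settings), and no member changes sign. Cdh19 passed the count filter through the unbound libraries, where it is higher.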

How the data were processed

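Each library has 1 deposited table of raw counts by gene feature. The submitters' processing notes name STAR 2.0.0e, HTSeq and the build mm10. Which annotation, strand setting and overlap mode were used is not given in these sources. The 6 entries that name no gene (5 summary entries and one called unknown) were left out of library sizes and tests. Reads that aligned to several places took 44.5% ± 0.67 of reads in IP and 32.5% ± 0.62 in unbound libraries, reads in no feature 7.74% ± 0.23 and 13.1% ± 0.49, and ambiguous reads 1.61% ± 0.03 and 8.31% ± 1.07 (SD, n = 3).

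The labelled sample type set the groups. Counts were tested with edgeR 4.0.16 (R 4.3.3; TMM, filterByExpr with a minimum count of 10 and total of 15, robust quasi-likelihood fit on group alone, Benjamini-Hochberg over 16991 genes). The SE of a log2 fold change is its size over the root of the F statistic. The members, the lists of partner and marker genes, the tests and the alternatives were chosen with earlier results of these data known. The rule for named genes took every member, with values by library for called members and for the highest of each class, and of the partners Ctnna2, Ctnnb1, Ctnnd1, Ctnnd2 and the 4 firmest calls in each direction. Other members with values by library, and other partners named, were chosen after their values were seen.

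Over genes, the distances of IP and unbound libraries of equal number from the means of their groups had correlations of 0.139, 0.164 and 0.206. Libraries of unequal number had correlations of -0.165 to 0.0435, so the numbers were taken as pairs. This comes from the data and not from a label, lane follows the numbers, and the test as reported leaves it out. Libraries of a group differed by more than counting noise (chi-square per degree of freedom 24.5 to 148), so none was counted as a copy.

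Alternatives were median-ratio size factors, library size alone, scaling on 8 neuron markers, 2 other filters, DESeq2 1.42.0, limma-voom (limma 3.58.1), the replicate block, a GC trend removed per library (GC from GENCODE M21, known for 90.7% of genes tested and all 41 members), that with the block, lane 2 alone, both replicates numbered 3 left out, and each library left out. Added after the data were seen was the fit on genes with GC content and no correction. The fit was also run on simulated data, which held no pairs of libraries, and no result above rests on that run.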

Additional observations from a re-analysis of the deposited data

How the results depend on the processing

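Scaling on neuron markers gave 675 genes higher and 7905 lower in IP (7.87% of calls higher, against 47.6% as reported), 3 members higher and 14 lower, and 0 partner genes higher and 28 lower. It turned the sign of 11 members, none called higher as reported, namely Cdh2 (-0.08), Cdh4 (-0.25), Cdh7 (-0.58), Cdh8 (-0.036), Cdh11 (-0.28), Cdh12 (-0.22), Cdh13 (-0.22), Celsr2 (-0.215), Pcdh7 (-0.40), Pcdh10 (-0.16) and Pcdh11x (-0.26), of which Cdh7 and Pcdh7 were called lower. Ctnna2 (-0.39), Ctnnb1 (-0.55) and Ctnnd2 (-0.37) turned as well and were called lower (adjusted p = 0.0445, 0.00456 and 0.0309, edgeR). Cdh7, at 0.01 as reported, was also at -0.08 with library size alone and -0.02 with median-ratio size factors. Ctnnb1 was also at -0.044 with library size alone. Scaling on neuron markers also called Pcdh9 lower (-0.71, adjusted p = 0.00588, edgeR), without a change of sign. The same held for Cdh6 (-0.88), Cdh9 (-1.35), Cdh10 (-0.79) and Celsr3 (-0.87). Lane 2 alone gave 1297 genes higher and 2538 lower (33.8% higher), 4 and 3 members, and 1 partner higher. The replicate block gave 11 members and 7 partners higher, against 3952 of 16991 genes. Without both replicates numbered 3, 16 members and 9 partners were higher, against 4429 of 17015 genes, and Pcdh9 was at 0.067. Leaving out 1 library at a time gave 5 to 12 members higher and 1 to 8 partners higher, with Pcdh9 between -0.234 and 0.042, the highest without IP replicate 3. These single omissions also gave 2489 to 4139 genes higher. The cause of these shifts was not tested.

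With library size alone 39.6% of calls were higher. No called member changed sign in the 19 alternative fits. Depth limits Cdh1, Cdh3, Cdh19 and Cdh23, with mean levels of 0.22, 0.33, 0.57 and 0.94 CPM in IP. The GC correction kept 7 members lower and left 6 higher, with 3213 of 15403 genes lower and 3385 higher.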
